A study of Mus musculus with 17 samples.

Results

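The creatine kinase shuttle and the ATP export route of the heart muscle cell were described by 10 genes, chosen by name as the enzymes, carriers, channels and oxygen store that link the mitochondrial matrix to the myofibril. They are Ckm, Ckmt2, Ckb, Slc25a4, Slc25a5, Slc25a3, Vdac1, Vdac2, Vdac3 and Mb, out of 55487 genes in the count table and 13230 that passed a filter on low counts. All 10 passed it. The cells were ventricular cardiomyocytes of adult mice (P60), freed by perfusion of the heart with a collagenase mix and kept on laminin for 3 h before 2 µg/mL actinomycin D, an inhibitor of transcription, was added. The groups were MBNL1 loss-of-function (KO) and WT cells, taken 0, 4 and 8 h later, with 3 libraries in each group except WT at 4 h, which had 2. MBNL1 is an RNA-binding protein that acts on splicing and on the localisation and stability of transcripts, and the design follows RNA after its synthesis is stopped. The labels name neither the allele nor the promoter of any Cre or transgene, and do not say whether replicates are separate animals, so p-values measure the spread between these libraries, which may be technical.

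The 17 libraries held 17059736 to 17971617 counts, of which 35.1 to 43.3% were in mitochondrially encoded genes and 2.07 to 2.77% in the 10 genes. The targeted gene went against the label: Mbnl1 stood at 100.0 ± 5.36 CPM (counts scaled to library size with TMM factors; SD, n = 3) in KO at 0 h and at 87.5 ± 1.30 in WT (n = 3). A count over the whole gene does not show whether a deleted part is missing, so KO here means the libraries labelled KO. Esr1, the oestrogen receptor gene, had 36443 to 46057 counts in the 9 libraries labelled KO and 0 to 57 in the 8 labelled WT, and what carries this signal cannot be told apart from the MBNL1 genotype. All 12 cardiomyocyte markers were detected, and at 0 h their summed level was 62210.2 to 65401 CPM in KO and 47070.0 to 51128 in WT, against 77241 to 82986 and 63055 to 70004 at 8 h. Markers of other cells were less abundant. At 0 h the 12 macrophage and leukocyte markers summed to 40.6 to 44.8 CPM in KO and 99.8 to 115 in WT, the 12 fibroblast markers to 44.6 to 47.3 and 80.2 to 81.6, and the 12 endothelial markers to 248 to 285 and 326 to 349. The 11 smooth muscle and pericyte markers summed to 1905 to 2019.8 CPM in KO and 1816 to 1836 in WT, of which Des, a filament gene that heart muscle also expresses, made up 75.3 to 77.8% and 68.6 to 70.1%. The other 10 summed to 442 to 471 CPM in KO and 545 to 569 in WT. The 5 atrial markers summed to 101 to 109 and 73.0 to 75.6 CPM, mostly from Nppa (96.5 to 103 and 61.5 to 62.0 CPM), and 1 of them was called higher and 4 lower in KO. The 7 erythroid markers summed to at most 9.36 CPM. In these bulk samples fewer cells of a type and less RNA per cell cannot be told apart. The part of the other cells' markers in the results was not tested, and values with cardiomyocyte markers as the scale stand beside the main ones below.

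ATP made in the matrix leaves through the ADP/ATP carriers of the inner membrane, while the phosphate carrier brings phosphate in. In the intermembrane space a mitochondrial creatine kinase passes phosphate from ATP to creatine, and phosphocreatine crosses the outer membrane through the voltage-dependent anion channels. At the myofibril the cytosolic creatine kinases rebuild ATP from phosphocreatine next to myosin and the calcium pump, and myoglobin stores and carries oxygen in the same cells. The brain-type kinase Ckb is more typical of the fetal heart and the muscle-type Ckm of the adult one. Likewise the carrier Slc25a4 is the form of adult heart and muscle, while Slc25a5 is more widespread.

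Since these are families of related genes, coding sequences are shown to let a reader see how far reads of one could fall on another. The carrier stretch runs from coding base 658 to 765 in both genes (GENCODE M21, GRCm38) and includes the signature of the ADP/ATP carriers at coding bases 703 to 720. Capitals mark the 22 bases that differ between Slc25a4 and Slc25a5, 3 of them in the signature.
Slc25a4: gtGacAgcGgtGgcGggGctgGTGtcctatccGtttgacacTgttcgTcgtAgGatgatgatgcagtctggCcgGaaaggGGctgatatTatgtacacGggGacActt
Slc25a5: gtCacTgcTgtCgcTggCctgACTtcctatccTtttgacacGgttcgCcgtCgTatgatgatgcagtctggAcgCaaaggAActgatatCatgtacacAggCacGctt
Over the whole coding sequence (894 bases each) these genes shared 77.4% of bases, and their longest identical run was 20 bases. The kinase stretch is that around the active-site cysteine, 69 coding bases in each gene, from base 823 in Ckm and Ckb and from base 925 in Ckmt2. Capitals mark the 13 bases of Ckb and the 20 of Ckmt2 that differ from Ckm.
Ckm: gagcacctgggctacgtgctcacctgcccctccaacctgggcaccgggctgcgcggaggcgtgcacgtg
Ckb: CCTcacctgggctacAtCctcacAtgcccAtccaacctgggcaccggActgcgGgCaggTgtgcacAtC
Ckmt2: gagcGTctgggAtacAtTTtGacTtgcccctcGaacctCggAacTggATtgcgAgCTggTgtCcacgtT
Ckm and Ckb shared 75.9% of their 1143 coding bases with no identical run over 20, and Ckm and Ckmt2 shared 60.3% of aligned bases with none over 17. Named pseudogene copies held at most 1 count in any library for Ckb and for Slc25a5, but up to 449 for Vdac3 (Vdac3-ps1) beside 3421 to 5263 for Vdac3 itself. How reads with several positions were counted is unknown here, so Vdac3 values are uncertain to that extent. Genes on the other strand that overlap exons of Ckm, Ckmt2, Vdac2 and Mb held at most 22 counts, while none of these 4 members had fewer than 6227.

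The upstream windows of Ckb and Slc25a5 are shown because the genotype difference of these genes was called under every scaling tried (below). RefSeq (GRCm38.p6) gave upstream sequence for 8 of the 10 genes, all but Vdac2 and Vdac3. Each window is the 250 bases before the RefSeq start, at chr12:111672339-111672588 on the minus strand for Ckb and at chrX:36795347-36795596 on the plus strand for Slc25a5. Capitals mark matches to motifs searched on both strands.
Ckb: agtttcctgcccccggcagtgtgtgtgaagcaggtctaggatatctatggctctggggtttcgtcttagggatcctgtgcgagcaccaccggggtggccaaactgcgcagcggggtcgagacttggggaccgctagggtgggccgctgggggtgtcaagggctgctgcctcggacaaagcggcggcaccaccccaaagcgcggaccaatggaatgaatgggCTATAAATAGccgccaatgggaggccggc
Slc25a5: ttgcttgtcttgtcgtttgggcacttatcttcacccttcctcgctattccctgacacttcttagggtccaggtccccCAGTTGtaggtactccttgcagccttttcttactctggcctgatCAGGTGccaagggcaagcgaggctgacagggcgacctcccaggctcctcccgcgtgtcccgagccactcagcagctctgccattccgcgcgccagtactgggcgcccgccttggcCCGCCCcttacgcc
In Ckb the capitals hold a TATA box (TATAAA, in 12.4% of 32851 RefSeq windows) inside a match to the MEF2 pattern (CTA and TAG with 4 bases of any kind between, in 3.20%). In Slc25a5 they are 2 matches to the E-box CANNTG (in 66.2%) and 1 to the GC box GGGCGG on the other strand (in 32.7%). These are descriptions of letters, and binding was not measured.

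Per length of exon, the 10 genes spanned a wide range before actinomycin D. In WT at 0 h the level was 5291 ± 264 RPKM (CPM per kilobase of union exon; SD, n = 3) for Mb (chr15:77015487-77050670, GRCm38), 1904 ± 113 for the carrier Slc25a4 (chr8:46206797-46211284) and 1361 ± 69.8 for the mitochondrial kinase Ckmt2 (chr13:91853387-91876885). Next in RPKM came the muscle kinase Ckm (chr7:19404776-19422841) at 419 ± 34.9 and Vdac1 (chr11:52360860-52389397) at 387 ± 13.0, whose libraries overlapped and so could not be ordered. The phosphate carrier Slc25a3 (chr10:91116574-91124059) followed at 274 ± 6.29 RPKM, Slc25a5 (chrX:36795651-36798807) at 164 ± 1.99, Vdac2 (chr14:21825238-21845879) at 67.5 ± 2.91, Vdac3 (chr8:22577075-22593813) at 34.3 ± 2.61 and Ckb (chr12:111669361-111672338) at 13.5 ± 0.448. All 10 are annotated as protein coding, and each value is over the whole gene. The order of means was the same in KO at 0 h, where Ckm and Vdac1 did not overlap. It depends on the length used: with the longest coding transcript, Slc25a3 stood above Ckm and Vdac1 at 944 RPKM in WT, and Ckm (445) below Vdac1 (501).

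**Figure D1:**
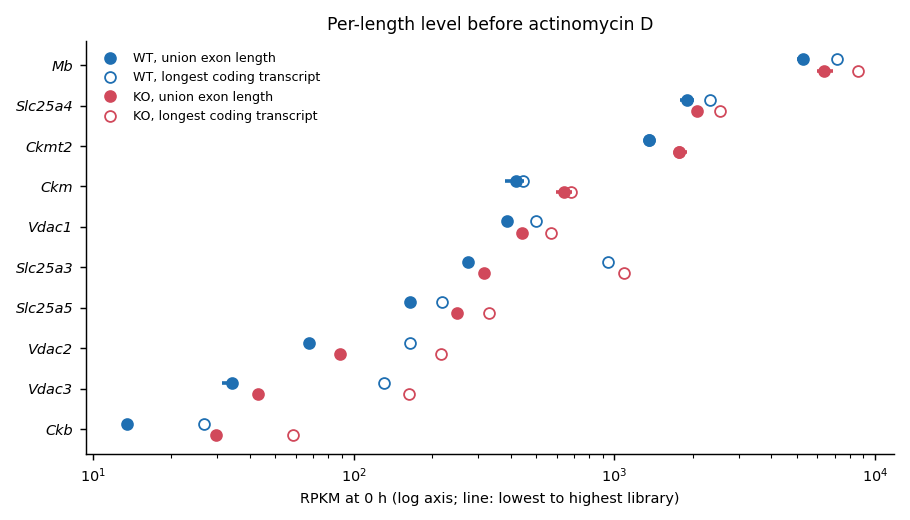
RPKM at 0 h on a log axis for WT (blue) and KO (red), 3 libraries each; filled points are means over union exon length with a line from the lowest to the highest library, and open points use the longest coding transcript. Mb and Slc25a4 lead and Ckb is lowest in both genotypes, and the place of Slc25a3 depends on the length used.

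With TMM scaling, all 10 genes were higher in KO than in WT at 0 h, where 18.8% of all genes were called higher (edgeR's quasi-likelihood test, adjusted p under 0.05) and 17.9% lower. The median log2 difference was 0.35 for the 10 genes and -0.02 for all genes tested. At 4 h again 10 of 10 were called higher (14.6% of all genes; medians 0.25 and -0.04), and at 8 h 7 of 10 (13.9%; 0.24 and -0.02). Every KO library lay above every WT library for 10, 10 and 7 of the genes at the 3 times, as it did for 22.5%, 23.4% and 18.8% of all genes. These counts depend on the scaling. At 0 h, 5 genes were called with library size alone, all higher (6.86% of all genes were higher). With ribosomal protein genes as the scale 3 were higher and 2 lower (3.59% and 57.8% of all genes), and with the 12 cardiomyocyte markers 3 higher and 3 lower (2.74% and 62.6%). Those scalings lowered the median of all genes by 0.21, 0.33 and 0.37 on the log2 scale. Ckb and Slc25a5 were called higher in KO under all 6 scalings tried at each of the 3 times, and Ckm under all 6 at 0 h.

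**Figure D2:**
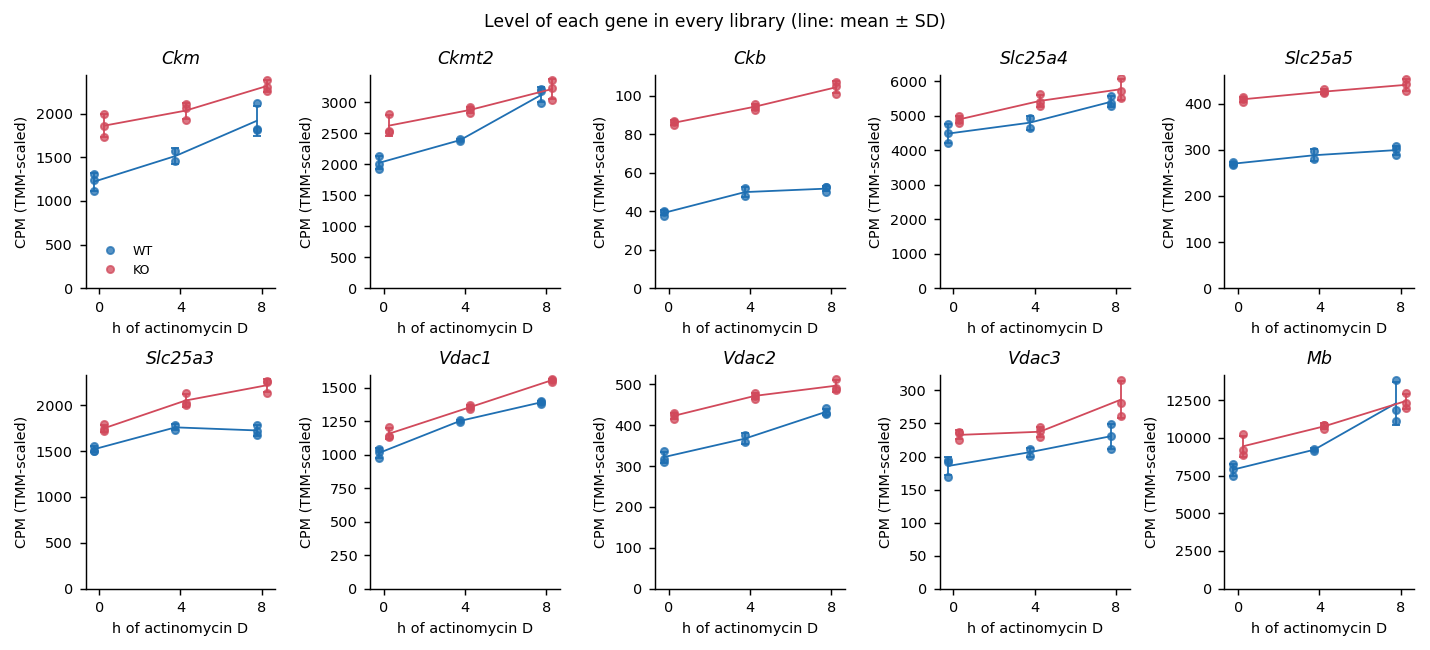
CPM (TMM-scaled) of each gene in every library against hours of actinomycin D, WT in blue and KO in red, with lines through the means and SD bars; each axis starts at 0. Ckb and Slc25a5 lie apart at every time, while Ckmt2, Slc25a4 and Mb overlap between genotypes at 8 h.

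Among the kinases, Ckb showed the largest genotype difference of the 10 genes at each time with TMM scaling. Its level was 39.5, 40.2 and 37.7 CPM in the WT libraries at 0 h and 86.9, 84.6 and 86.4 in KO, 51.9 and 48.0 against 94.4, 96.0 and 92.8 at 4 h, and 50.1, 52.4 and 52.8 against 101, 107 and 105 at 8 h. Every KO library lay above every WT library of any time. The log2 difference was 1.14 ± 0.05 (SE; 2.20-fold) at 0 h, 0.92 ± 0.06 at 4 h and 1.01 ± 0.05 at 8 h, with edgeR adjusted p of 4.70e-28, 1.05e-20 and 8.89e-26. It was smallest with the cardiomyocyte markers as the scale at 0 h (0.76) and 8 h (0.74), and with ribosomal protein genes at 4 h (0.56). Behind these values stood 730 to 1748 counts per library.

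The muscle-type kinase Ckm, part of which is bound at the M band of the sarcomere, was at 1111, 1239 and 1312 CPM in WT and 1858, 1734 and 1994 in KO at 0 h. At 4 h it was at 1452 and 1577 against 2109, 2064 and 1930.3 CPM, and at 8 h at 1814, 1819.6 and 2118 against 2258, 2384 and 2306. The genotypes did not overlap at any time. On the log2 scale KO minus WT was 0.61 ± 0.07 at 0 h (edgeR adjusted p = 2.89e-06), 0.43 ± 0.08 at 4 h (5.24e-04) and 0.27 ± 0.07 at 8 h (0.00784). Over the 6 scalings it ranged from 0.24 to 0.63 at 0 h, from 0.07 to 0.46 at 4 h (called under 5) and from 0.01 to 0.30 at 8 h (called under 4). The call at 8 h was lost without WT 8 h replicate 1 (0.23, adjusted p 0.0511).

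The mitochondrial kinase Ckmt2, which loads phosphate onto creatine, was at 2133, 1926 and 2009 CPM in WT and 2527, 2533 and 2813 in KO at 0 h, and at 2401 and 2379.6 against 2823, 2885 and 2927 at 4 h. By 8 h the libraries overlapped, at 3208, 2982 and 3178 CPM in WT and 3040.0, 3235 and 3364 in KO. On the log2 scale KO minus WT was 0.38 ± 0.04 at 0 h (edgeR adjusted p = 1.24e-10), 0.27 ± 0.05 at 4 h (1.24e-05) and 0.04 ± 0.04 at 8 h (0.527; 95% interval -0.04 to 0.13). It was called higher under 4 of 6 scalings at 0 h and 4 at 4 h, where it turned to -0.09 with ribosomal protein genes, and was called lower at 8 h with cardiomyocyte markers as the scale (-0.23).

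Of the 3 inner membrane carriers among the 10 genes, Slc25a5 differed most with TMM scaling. It was at 269.6, 273 and 267 CPM in WT and 415, 411 and 404 in KO at 0 h, at 297 and 279 against 425, 432 and 422 at 4 h, and at 308, 302 and 289 against 428, 442 and 454 at 8 h. Every KO library lay above every WT library of any time. The log2 difference was 0.60 ± 0.04, 0.56 ± 0.05 and 0.56 ± 0.04 at 0, 4 and 8 h, with edgeR adjusted p of 7.36e-20, 3.83e-16 and 2.50e-18. The lowest value over the scalings was 0.23 at 0 h, 0.20 at 4 h and 0.29 at 8 h.

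Slc25a4, the adult heart form of the same carrier, was at 4211, 4482 and 4744 CPM in WT and 4869, 4795 and 4992 in KO at 0 h, at 4654 and 4932 against 5612, 5386 and 5274 at 4 h, and at 5359, 5264 and 5571 against 5494, 5705 and 6094 at 8 h. The genotypes were close at 0 h and overlapped at 8 h. On the log2 scale KO minus WT was 0.13 ± 0.04 at 0 h (edgeR adjusted p = 0.0193), 0.18 ± 0.05 at 4 h (0.00323) and 0.09 ± 0.04 at 8 h (0.101; 95% interval 0.01 to 0.18), and its sign at 0 h turned with 3 of the 6 scalings, down to -0.25. The call at 0 h was lost without KO 0 h replicate 3 (0.11, adjusted p 0.0772) or WT 0 h replicate 1 (0.08, adjusted p 0.180). The call at 4 h was lost without WT 4 h replicate 1 (0.16, adjusted p 0.0518), where the WT library left is assumed to vary like the other groups.

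The phosphate carrier Slc25a3 was at 1562, 1497 and 1506 CPM in WT and 1793, 1724 and 1737 in KO at 0 h, at 1784 and 1737 against 2132, 2028 and 1999 at 4 h, and at 1722, 1786 and 1673 against 2255, 2136 and 2269.5 at 8 h. The genotypes did not overlap at any time. The log2 difference was 0.20 ± 0.04 at 0 h (edgeR adjusted p = 3.21e-05), 0.22 ± 0.04 at 4 h (6.04e-05) and 0.36 ± 0.04 at 8 h (2.80e-11), but it was negative under 3 scalings at 0 h and 2 at 4 h, down to -0.17 and -0.14. At 8 h it was positive under all 6 and called under 5, with 0.09 as the lowest value.

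Of the 3 outer membrane channels, Vdac2 differed most at 0 h with TMM scaling. It was at 337, 317 and 311 CPM in WT and 429, 414 and 425 in KO at 0 h, at 358 and 376 against 464, 472 and 479.6 at 4 h, and at 429, 428 and 442 against 492, 513 and 486 at 8 h. The KO libraries were above WT at each time. The log2 difference was 0.39 ± 0.04 at 0 h (edgeR adjusted p = 1.85e-12), 0.36 ± 0.05 at 4 h (1.84e-09) and 0.20 ± 0.04 at 8 h (8.15e-05), called under 4, 4 and 3 of 6 scalings and turning to -0.07 at 8 h with cardiomyocyte markers.

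Vdac1, the most abundant channel in RPKM, was at 1041, 975 and 1023 CPM in WT and 1206, 1129 and 1137 in KO at 0 h, at 1260.0 and 1246 against 1358, 1372 and 1339 at 4 h, and at 1398, 1379 and 1401 against 1559, 1567 and 1545 at 8 h. The genotypes were apart at each time by less than the rise within either from 0 to 8 h. On the log2 scale KO minus WT was 0.19 ± 0.04, 0.11 ± 0.04 and 0.16 ± 0.04 (edgeR adjusted p 4.60e-05, 0.0359 and 8.54e-04), and each became negative under at least 1 scaling, down to -0.25 at 4 h. The call at 4 h was lost without KO 4 h replicate 1, KO 4 h replicate 2, KO 4 h replicate 3 or WT 4 h replicate 2 (0.11 to 0.14, adjusted p 0.0503 to 0.109).

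Vdac3, the least abundant channel in RPKM, was at 195, 169 and 192 CPM in WT and 237, 236 and 225 in KO at 0 h, at 202 and 211 against 229.8, 245 and 238 at 4 h, and at 231, 249 and 212 against 261, 281 and 316 at 8 h. The genotypes were apart at each time. The log2 difference was 0.33 ± 0.07, 0.20 ± 0.07 and 0.31 ± 0.06 (edgeR adjusted p 4.08e-04, 0.0396 and 9.23e-04), negative with ribosomal protein or cardiomyocyte marker scaling at 0 and 4 h. The call at 4 h was lost without KO 0 h replicate 2, KO 4 h replicate 2, KO 4 h replicate 3, KO 8 h replicate 2, WT 4 h replicate 1 or WT 8 h replicate 1 (0.18 to 0.20, adjusted p 0.0501 to 0.160).

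Mb, the oxygen-binding protein, was at 8247, 7471 and 7966 CPM in WT and 9222, 8887 and 10237 in KO at 0 h, at 9146 and 9296 against 10566, 10887 and 10879.8 at 4 h, and at 13870.2, 11124 and 11870.2 against 12333, 12016 and 12997 at 8 h. The groups were apart at 0 and 4 h and overlapped at 8 h, where 1 WT library was above all others. On the log2 scale KO minus WT was 0.26 ± 0.06 at 0 h (edgeR adjusted p = 0.00108), 0.23 ± 0.07 at 4 h (0.0110) and 0.02 ± 0.06 at 8 h (0.855; 95% interval -0.10 to 0.14), with negative values down to -0.12, -0.14 and -0.25 over the scalings. The plot of genotype differences by scaling shows the whole spread.

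**Figure D3:**
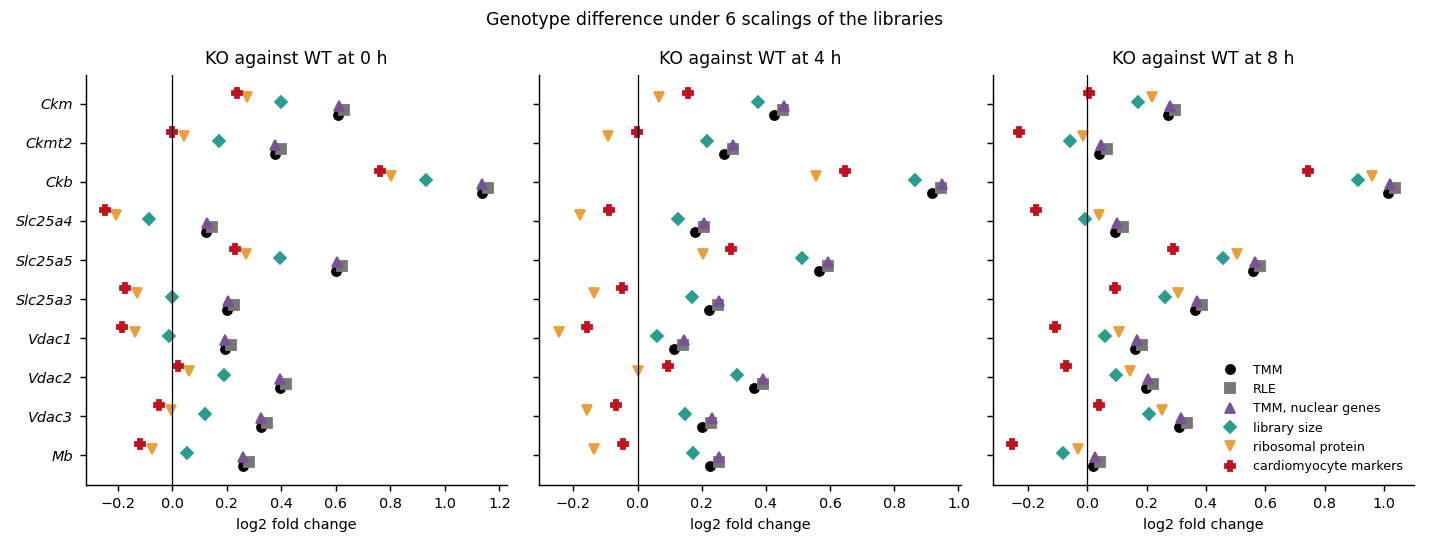
Log2 fold change of KO against WT (horizontal axis) for each gene at 0, 4 and 8 h, with a symbol for each of 6 ways to scale the libraries. Ckb and Slc25a5 stay right of 0 with every symbol, while Slc25a4, Slc25a3, Vdac1, Vdac3 and Mb cross it at 0 h.

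The ratio of the counts of 1 gene to another in the same library does not depend on scaling, and 5 such ratios were taken between related genes. Ckb counts were 3.56, 3.24 and 2.87% of Ckm counts in WT at 0 h and 4.68, 4.88 and 4.33% in KO, 3.58 and 3.05% against 4.48, 4.65 and 4.81% at 4 h, and 2.76, 2.88 and 2.50% against 4.48, 4.50 and 4.56% at 8 h. The KO libraries were above the WT libraries at each time, by a mean log2 difference of 0.59 (exact permutation test within times, 2-sided p = 2.50e-04, the smallest it can give; 0.00125 after Benjamini-Hochberg over 10 tests). Slc25a5 counts were 6.40, 6.10 and 5.63% of Slc25a4 counts in WT and 8.51, 8.57 and 8.09% in KO at 0 h, 6.39 and 5.67% against 7.56, 8.03 and 8.01% at 4 h, and 5.75, 5.73 and 5.18% against 7.78, 7.74 and 7.44% at 8 h. Again the genotypes did not overlap at any time, with a mean log2 difference of 0.44 (exact permutation p = 2.50e-04, the smallest possible; adjusted 0.00125). In both pairs the less abundant form was higher against the more abundant one in KO.

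Ckmt2 stood lower against Ckm in KO, at 141 ± 5.03% of its counts (SD, n = 3) against 167 ± 21.7% in WT at 0 h, and by a mean log2 difference of -0.21 over the 3 times (exact permutation p = 0.00100, adjusted 0.00250), with overlap at 4 h. At 0 h the WT libraries were at 191.9, 155.5 and 153.1%, so replicate 1 raised the WT mean, and KO at 136.0, 146.1 and 141.1%. The ratio of Vdac2 to Vdac1 counts was 36.6 ± 0.917% in KO and 31.8 ± 1.22% in WT at 0 h, but overlapped at 8 h (31.9 ± 0.727% and 31.1 ± 0.430%). Its mean log2 difference was 0.16 (exact permutation p = 7.50e-04, adjusted 0.00250). The ratio of Vdac3 to Vdac1 counts differed by 0.12 (exact permutation p = 0.00725, adjusted 0.0145), with the genotypes apart at 0 h and overlapping at 4 and 8 h.

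**Figure D4:**
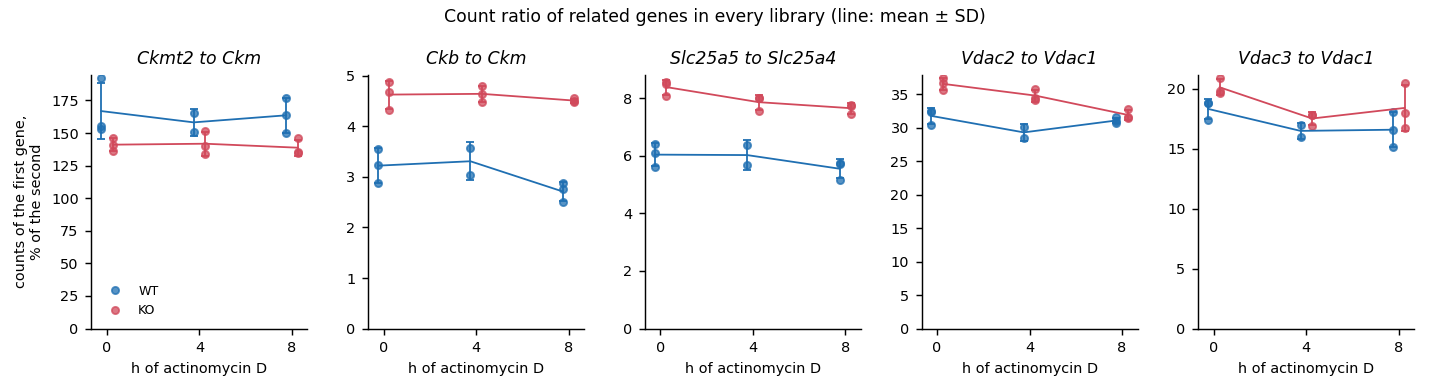
Counts of the first gene as a percent of the second in every library, WT in blue and KO in red, against hours of actinomycin D; lines join means and bars are SD, and each axis starts at 0. Ckb to Ckm and Slc25a5 to Slc25a4 are higher in KO at every time, and Vdac2 to Vdac1 overlaps with WT at 8 h.

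With transcription blocked, a gene's scaled level rises when it is lost more slowly than what the scale rests on, and no amount per cell was measured. By 8 h all 10 genes had risen with TMM scaling in WT, where 25.0% of all genes were called higher and 26.8% lower (median log2 change 0.42 for the 10 and -0.03 for all). All 10 had risen in KO too (21.4% of all genes higher; 0.30 and -0.02). At 4 h 7 of 10 had risen in WT (15.9% of all genes) and 7 in KO (11.4%). Markers of other cells moved with time as well. In WT at 8 h with TMM, 12 of 12 endothelial markers (median log2 change -2.26), 12 of 12 macrophage and leukocyte markers (-2.37) and 10 of 12 fibroblast markers (-1.06) had fallen, while 10 of 12 cardiomyocyte markers had risen (0.34). Of the 9 smooth muscle and pericyte markers tested, 3 had risen and 6 fallen. In KO at 8 h 12 endothelial, 7 macrophage and leukocyte and 10 fibroblast markers had fallen (medians -1.93, -0.61 and -1.04). Of all 13230 genes, 3068 were called lower in this KO comparison. There 11 of 12 cardiomyocyte markers (median 0.34) and 1 fibroblast marker had risen. The part of the other cells in the rise of the 10 genes was not tested. Within a genotype, 4 and 8 h are set against the same 0 h libraries. In WT at 8 h the log2 change was 0.65 ± 0.07 for Ckm, 0.64 ± 0.06 for Mb and 0.63 ± 0.04 for Ckmt2 (edgeR adjusted p 6.84e-07, 7.34e-10 and 2.62e-19). It was lowest for Slc25a5, at 0.15 ± 0.04 (0.00144), and Slc25a3, at 0.18 ± 0.04 (9.46e-05). The other 5 lay between 0.27 (Slc25a4) and 0.46 (Vdac1).

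In KO at 8 h the highest log2 changes were 0.43 ± 0.04 for Vdac1, 0.40 ± 0.06 for Mb and 0.34 ± 0.04 for Slc25a3 (edgeR adjusted p 1.85e-14, 3.85e-06 and 1.00e-10), and the lowest was again Slc25a5, at 0.11 ± 0.04 (0.0261). The call of Slc25a5 was lost without KO 0 h replicate 2, KO 0 h replicate 3, KO 8 h replicate 2, KO 8 h replicate 3, WT 0 h replicate 2 or WT 0 h replicate 3 (0.08 to 0.11, adjusted p 0.0545 to 0.135). The direction of these changes belongs to the scale. With library size alone, Slc25a5 (-0.063) and Slc25a3 (-0.029) were negative at 8 h in WT, and Slc25a5 (-0.0011) in KO. Against ribosomal protein genes all 10 values at 8 h were negative in WT and 8 in KO (all but Vdac1 and Mb), and that scale lowered the median of all genes by 0.67 and 0.39. Against the cardiomyocyte markers 5 were negative in WT and 6 in KO, with the median lowered by 0.41 and 0.30. Ckm, Ckmt2 and Mb in WT were called higher under 5 of 6 scalings each.

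Without any scale, the ratio of Slc25a5 to Slc25a4 counts changed by -0.13 on the log2 scale from 0 to 8 h over both genotypes (exact permutation test within genotypes, 2-sided p = 0.0150, adjusted 0.0250). It was -0.12 in WT, where the times overlapped, and -0.13 in KO, where they did not. That of Vdac2 to Vdac1 changed by -0.11 (exact permutation p = 0.0200, adjusted 0.0286). This is a mean of unlike values, -0.03 in WT with the times overlapping and -0.20 in KO with the times apart. The other 3 ratios missed the threshold after adjustment, at -0.14 for Vdac3 to Vdac1, -0.14 for Ckb to Ckm and -0.02 for Ckmt2 to Ckm (adjusted exact permutation p 0.0562, 0.0722 and 0.695). For Ckb to Ckm the change was -0.25 in WT and -0.04 in KO, with the times overlapping in both.

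**Figure D5:**
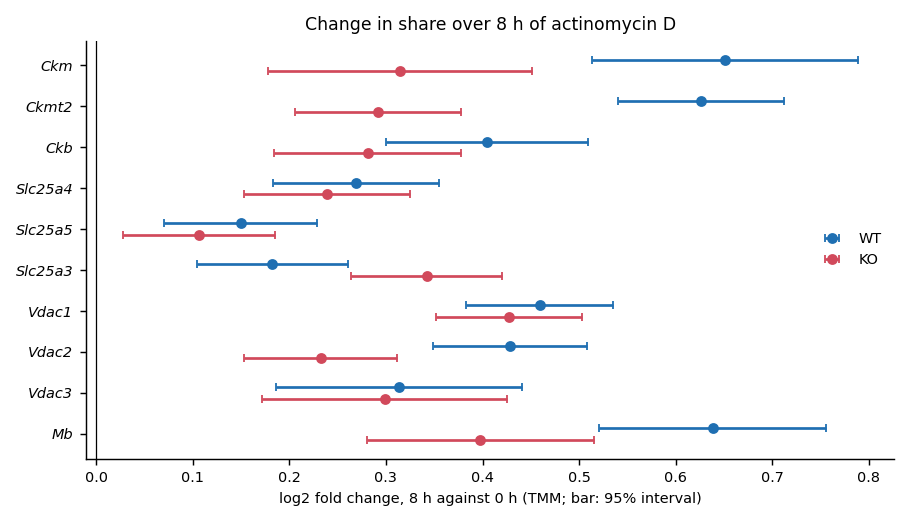
Log2 fold change of each gene from 0 to 8 h of actinomycin D (TMM scaling) in WT (blue) and KO (red), with 95% intervals. All points are right of 0, and Ckmt2 and Vdac2 are the genes whose change differed between genotypes past the threshold.

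Whether the change over time differed between genotypes was tested as an interaction. At 4 h none of the 10 genes passed, where 0.348% of all genes were called (edgeR; 1 of the 10, Ckb, had an unadjusted p under 0.05, and DESeq2 called 0). At 8 h Ckmt2 and Vdac2 had risen less in KO with TMM scaling, where 3.33% of all genes were called in this direction and 1.87% in the other. The log2 change of Ckmt2 was 0.63 in WT and 0.29 in KO, a difference of -0.33 ± 0.06 (edgeR adjusted p = 2.65e-04). That of Vdac2 was 0.43 and 0.23, a difference of -0.20 ± 0.06 (0.0287). The value of Ckmt2 was negative under all 6 scalings, called under 4 and -0.06 at the weakest, while that of Vdac2 was called under 3 and turned to 0.08 with ribosomal protein scaling. The call of Vdac2 was lost without KO 0 h replicate 1, KO 0 h replicate 3, KO 8 h replicate 1, KO 8 h replicate 3 or WT 8 h replicate 3 (-0.18 to -0.19, adjusted p 0.0624 to 0.0855). Of the 12 cardiomyocyte markers, 5 were also called lower in this interaction, and with these markers as the scale none of the 10 genes was called. Of the 12 macrophage and leukocyte markers, 10 were called higher. With ribosomal protein scaling 5 of the 10 genes were called, all higher, as were 22.7% of all genes.

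Ckm had a difference of the same size as Ckmt2 with a wider error and missed the threshold with edgeR (-0.34 ± 0.10, adjusted p = 0.0645), but passed with DESeq2 (adjusted p = 0.00701). It also passed without any 1 of KO 0 h replicate 2, KO 4 h replicate 3, WT 0 h replicate 1, WT 0 h replicate 3, WT 4 h replicate 2, WT 8 h replicate 2 or WT 8 h replicate 3 (-0.26 to -0.42, adjusted p 0.00959 to 0.0490). Mb was at -0.24 ± 0.08 (0.105) and passed without KO 8 h replicate 3 (-0.27, adjusted p 0.0458) or WT 8 h replicate 2 (-0.31, adjusted p 0.00655). Slc25a3 had a positive value, 0.16 ± 0.06 (0.0870), which was called under 2 of 6 scalings and with DESeq2 (adjusted p = 0.0489). For the remaining genes the 95% intervals were -0.15 to 0.09 (Slc25a4), -0.16 to 0.07 (Slc25a5), -0.14 to 0.08 (Vdac1), -0.19 to 0.17 (Vdac3) and -0.27 to 0.02 (Ckb).

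Around the shuttle, all 16 tested nuclear genes of the ATP synthase, which makes the ATP that is exported, were called higher in KO at 0 h with TMM (median log2 difference 0.38). With library size alone 8 were, with ribosomal protein genes 3 (and 1 lower), and with cardiomyocyte markers 1 (and 1 lower). Of all genes, 18.8% were higher with TMM and 6.86% with library size. With ribosomal protein genes 3.59% were higher and 57.8% lower, and with cardiomyocyte markers 2.74% and 62.6%. Usmg5, a small subunit, differed most with TMM (0.59 ± 0.10, edgeR adjusted p = 5.89e-04), and Atp5a1, the alpha subunit of the catalytic head, least (0.19 ± 0.04, 7.68e-05; called lower under 2 scalings). In WT at 8 h all 16 had risen with TMM (median log2 change 0.52), from Atp5a1 (0.31 ± 0.04, 1.01e-09) to Atp5e, the epsilon subunit (0.90 ± 0.11, 2.23e-05), and with ribosomal protein scaling 1 was higher and 8 lower. Of all genes, 25.0% had risen with TMM, and with ribosomal protein scaling 0.378% were higher and 85.4% lower.

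The other lists were mixed. Of all genes, 18.8% were higher and 17.9% lower in KO at 0 h with TMM. These shares were 3.59% and 57.8% with ribosomal protein scaling and 2.74% and 62.6% with cardiomyocyte markers. With library size alone, 907 of 13230 genes were higher and 5564 lower. Of 12 tested genes of creatine supply and phosphate transfer, 3 were higher and 6 lower in KO at 0 h with TMM (median log2 difference -0.12), against 0 and 7 with ribosomal protein scaling and the same counts with cardiomyocyte markers. Nme6, of the nucleoside diphosphate kinase family, was at 0.50 ± 0.11 (edgeR adjusted p = 1.07e-04, called under 4 of 6 scalings). Gatm, the first enzyme of creatine synthesis, had 9, 17 and 17 counts in WT and 2, 3 and 2 in KO at 0 h, and 0 in all 3 WT libraries at 8 h, so no fold is given. Of 28 genes listed as other carriers, mostly of the inner membrane, 10 were higher and 8 lower with TMM (median -0.07). These counts became 2 and 14 with library size, 1 and 18 against ribosomal protein genes, and 1 and 21 with cardiomyocyte markers. Slc25a13, an aspartate-glutamate carrier, was at 0.52 ± 0.04 (edgeR adjusted p = 4.51e-16) and Ucp3, an uncoupling protein, at -1.30 ± 0.07 (1.50e-25), each called in its direction under all 6 scalings.

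Of 23 outer membrane and permeability pore partners, 12 were higher and 3 lower in KO at 0 h with TMM (2 and 13 with ribosomal protein scaling). Of all genes, 18.8% were higher and 17.9% lower with TMM, and 3.59% and 57.8% with ribosomal protein scaling. Bcl2l1, which guards the outer membrane against permeabilisation, was at 0.71 ± 0.10 (edgeR adjusted p = 5.45e-08) and Bcl2, of the same family, at -0.39 ± 0.13 (0.0126), each in its direction under all 6 scalings. Of 13 ATPases and M band partners, which use the ATP or lie where the kinase is bound, 7 were higher and 3 lower with TMM (1 and 7 with ribosomal protein scaling). Myom3, an M band protein, was at 0.84 ± 0.18 (edgeR adjusted p = 1.79e-04) and Atp2b4, a plasma membrane calcium pump, at -0.53 ± 0.19 (0.0213), again under all 6.

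In WT at 8 h with TMM, 4 of the creatine list were higher and 2 lower, 11 and 7 of the other carriers, 16 and 3 of the outer membrane partners, and 7 and 2 of the ATPases and M band partners. Of all genes, 25.0% were higher and 26.8% lower. With ribosomal protein scaling no gene of these 4 lists was called higher and 11 of 12, 25 of 28, 20 of 23 and 13 of 13 were lower, where 0.378% of all genes were higher and 85.4% lower. In the last 3 of these lists, the highest called with TMM were the pyruvate carrier subunit Mpc1 (0.62 ± 0.05), the outer membrane protein Tspo (0.57 ± 0.07) and the myosin Myh6 (0.37 ± 0.08), with edgeR adjusted p of 2.48e-15, 5.77e-10 and 0.00169. Each of these 3 turned negative under at least 1 scaling. The lowest called in each of these 3 lists were the carrier Slc25a24 (-2.30 ± 0.42), Bcl2l1 (-0.56 ± 0.12) and a calcium pump, Atp2a3 (-2.33 ± 0.40). Each was called lower under all 6 scalings, with edgeR adjusted p of 5.32e-06, 5.58e-05 and 1.82e-06. Endothelial and macrophage and leukocyte markers had medians of -2.26 and -2.37 in the same comparison, and the cell source of Atp2a3 was not tested. In the creatine list the lowest was Gatm, whose counts fell from 9, 17 and 17 at 0 h to 0 in each WT library at 8 h (edgeR adjusted p = 9.36e-08, called lower under all 6 scalings).

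Among themselves over the 17 libraries, which share genotype, time and scaling, log2 CPM was most alike for Ckb and Slc25a5 (Pearson r = 0.99) and for Ckmt2 and Mb (0.96), and least for Slc25a5 and Mb (0.48). Of 6649 other genes, those nearest Ckb were Aldh1b1 (0.99), Gpx3 (0.99) and Bcam (0.99), and those nearest Ckm were Ndufa10 (0.98), Idh2 (0.97) and Nsmce1 (0.97). Nearest Slc25a4 were Rps13 (0.96), Rps2 (0.96) and Cox4i1 (0.95), and nearest Vdac1 were Phyh (0.98), Etfdh (0.98) and Gyg (0.98). These values describe a pattern over the same 6 groups and carry no test.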

How the data were processed

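The authors deposited raw counts per Ensembl gene for the 17 libraries. STAR, featureCounts, DESeq2, limma and the builds GRCm38 and mm10 are listed by the submitters' processing notes, with no versions or roles; strand and the handling of multiply mapped reads are unknown here. A deposited table of ratios was not used. The 10 genes, the lists and the tests were chosen with earlier results of these data known. Counts were fitted with edgeR 4.0.16 (R 4.3.3) in 1 quasi-likelihood model of the 6 groups, with filterByExpr, TMM factors and robust dispersion (biological coefficient of variation 5.28%). Benjamini-Hochberg adjustment ran over all 13230 genes, with calls at 0.05. The standard error is the absolute log2 fold change over the root of F, and a 95% interval is 1.96 standard errors each way. Other scales were RLE factors, library size alone, nuclear genes, 83 ribosomal protein genes and, chosen after seeing the data, the 12 cardiomyocyte markers; these and TMM are the 6 scalings. Other alternatives were no low-count filter, CPM of 1 in 3 libraries, DESeq2 1.42.0, the compared groups only, a replicate block and leaving out each library. Of 16 replicate pairs none was identical, and they differed by 1.27 to 3.20 times counting noise. Besides the 10 genes, the text names the extreme called genes of each list in 3 comparisons (the genotypes at 0 h, the 8 h change in WT and its interaction with genotype; 1 is not reported here), plus the 3 genes most correlated in log2 CPM (prior count 2, mean of at least 3, no predicted genes) with each of Ckm, Ckb, Slc25a4 and Vdac1. Positions, lengths and coding sequences came from GENCODE M21 (GRCm38), and 99.4% of gene IDs had a symbol. The fit was tested on simulated data with changes in KO at 8 h only. Every other gene had the same mean in all groups there, unlike in these data, so the choice of scaling was not tested. The 8 h interaction called 121 genes, of which 10 were false. Among genes with a mean log2 CPM of at least 6, it recovered 3 of 6 changed 1.25-fold and 4 of 4 changed 1.5-fold. KO against WT at 8 h called 151, with 5 false, and recovered 5 of 6 changed 1.25-fold.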

Additional observations from a re-analysis of the deposited data

Results flagged for a closer look

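The change over 8 h of actinomycin D differed between KO and WT by edgeR's interaction test (adjusted p under 0.05) for each gene here, with TMM scaling. Of the 10 genes, these were Ckmt2 (-0.33 on the log2 scale, KO minus WT) and Vdac2 (-0.20). Of the lists around them, the value was also negative for the pyruvate carrier subunit Mpc1 (-0.29), the peroxisomal carrier Slc25a17 (-0.50), the cristae protein Chchd3 (-0.23), the ATP synthase subunits Atp5l (-0.25) and Atp5j2 (-0.29) and the sarcomeric adaptor Fhl2 (-0.22). None of these 6 list genes was called with library size, ribosomal protein or cardiomyocyte marker scaling, and Chchd3, Atp5l and Fhl2 turned positive with ribosomal protein scaling. The creatine transporter Slc6a8 had a positive value, 0.30, and 0.30 to 0.57 over the 6 scalings, called under each. The value of 6.53 for Gatm rests on 0 counts in all 3 WT libraries at 8 h, so it depends on the prior count and is no bound.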

How the results depend on the processing

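For some of the settings below, the calls over all genes stand at the end of this paragraph. Where they are not given, a count cannot be read as particular to the 10 genes. With library size alone, the number of the 10 genes called was 5 for KO against WT at 0 h (5 higher), 4 for KO against WT at 8 h (4 higher), 0 for WT from 0 to 4 h, 6 for WT from 0 to 8 h (6 higher) and 4 for KO from 0 to 4 h (4 higher). For KO against WT at 0 h the sign turned in Slc25a4 (-0.083), Slc25a3 (-0.0022) and Vdac1 (-0.013). For WT from 0 to 8 h the sign turned in Slc25a5 (-0.063) and Slc25a3 (-0.029). For KO from 0 to 8 h the sign turned in Slc25a5 (-0.0011). With ribosomal protein genes as the scale, the number of the 10 genes called was 5 for KO against WT at 0 h (3 higher and 2 lower), 4 for KO against WT at 4 h (2 higher and 2 lower), 0 for WT from 0 to 4 h, 2 for KO from 0 to 4 h (2 lower), 3 for KO from 0 to 8 h (3 lower) and 5 for the interaction at 8 h (5 higher). For KO against WT at 0 h the sign turned in Slc25a4 (-0.21), Slc25a3 (-0.13), Vdac1 (-0.14), Vdac3 (-0.0029) and Mb (-0.074). For KO against WT at 4 h the sign turned in Ckmt2 (-0.093), Slc25a4 (-0.18), Slc25a3 (-0.14), Vdac1 (-0.25), Vdac3 (-0.16) and Mb (-0.14). For WT from 0 to 8 h the sign turned in Ckm (-0.015), Ckmt2 (-0.042), Ckb (-0.26), Slc25a4 (-0.40), Slc25a5 (-0.52), Slc25a3 (-0.48), Vdac1 (-0.21), Vdac2 (-0.24), Vdac3 (-0.35) and Mb (-0.034). For KO from 0 to 8 h the sign turned in Ckm (-0.073), Ckmt2 (-0.097), Ckb (-0.11), Slc25a4 (-0.15), Slc25a5 (-0.29), Slc25a3 (-0.049), Vdac2 (-0.16) and Vdac3 (-0.096). For the interaction at 8 h the sign turned in Slc25a4 (0.25), Slc25a5 (0.23), Vdac1 (0.24), Vdac2 (0.082) and Vdac3 (0.25). With cardiomyocyte markers as the scale, an alternative chosen after seeing the data, the number of the 10 genes called was 6 for KO against WT at 0 h (3 higher and 3 lower), 3 for KO against WT at 4 h (3 higher), 0 for WT from 0 to 4 h, 6 for WT from 0 to 8 h (3 higher and 3 lower), 0 for KO from 0 to 4 h, 1 for KO from 0 to 8 h (1 lower) and 0 for the interaction at 8 h. For KO against WT at 0 h the sign turned in Slc25a4 (-0.25), Slc25a3 (-0.17), Vdac1 (-0.18), Vdac3 (-0.049) and Mb (-0.12). For KO against WT at 4 h the sign turned in Ckmt2 (-0.0020), Slc25a4 (-0.090), Slc25a3 (-0.049), Vdac1 (-0.16), Vdac3 (-0.066) and Mb (-0.044). For KO against WT at 8 h the sign turned in Ckmt2 (-0.23), Slc25a4 (-0.17), Vdac1 (-0.11), Vdac2 (-0.071) and Mb (-0.25). For WT from 0 to 8 h the sign turned in Ckb (-0.0041), Slc25a4 (-0.14), Slc25a5 (-0.26), Slc25a3 (-0.23) and Vdac3 (-0.093). For KO from 0 to 8 h the sign turned in Ckmt2 (-0.012), Ckb (-0.024), Slc25a4 (-0.065), Slc25a5 (-0.20), Vdac2 (-0.072) and Vdac3 (-0.0050). The cause of these shifts was not tested. At the 8 h interaction DESeq2 called 4 of the 10 genes (1 higher and 3 lower, adding Slc25a3 and Ckm) and the fit with the replicate block called 4, all lower, adding Ckm and Mb (edgeR adjusted p 0.0124 and 0.0375). Residuals of 40 same-numbered pairs of libraries had r of -0.05 to 0.04, with no differently numbered pairs set beside them. These values cannot show whether replicate numbers mark shared animals. Leaving out 1 library at a time, the genes called of the 10 were 9 to 10, 8 to 10 and 6 to 7 for KO against WT at 0, 4 and 8 h, 4 to 8 and 10 to 10 in WT and 4 to 7 and 9 to 10 in KO at 4 and 8 h, and 1 to 4 for the 8 h interaction. The log2 change from 0 to 8 h was -0.18 to -0.10 for Ckb to Ckm and -0.18 to -0.11 for Vdac3 to Vdac1. Of all genes, KO against WT at 0 h called 2486 higher and 2365 lower with TMM, 907 higher and 5564 lower with library size, 475 higher and 7650 lower with ribosomal protein genes and 363 higher and 8281 lower with cardiomyocyte markers. With ribosomal protein genes and TMM, the counts were 7795 and 4228 at 4 h, 11344 and 6860 for WT at 8 h, 3046 and 688 for the 8 h interaction, and 28 and 46 for that at 4 h. Those with ribosomal protein genes were 333 higher and 7462 lower at 4 h and 50 and 11294 for WT at 8 h. For the 8 h interaction they were 3002 and 44. With cardiomyocyte markers the total was 6354 at 4 h, 6550 at 8 h (3647 with TMM) and 331 for the 8 h interaction. These were 441 higher and 5913 lower, 362 and 6188, and 283 and 48. The 4 h interaction called 100 with library size and 24 with DESeq2, and 27, 26 and 27 without KO 0 h replicate 2, KO 4 h replicate 2 and WT 4 h replicate 1. The 8 h interaction called 445, 422 and 437 without KO 0 h replicate 3, KO 8 h replicate 2 and WT 8 h replicate 1. WT at 4 h called 3777, and 2361 and 2350 without its replicate 1 or 2, where the lone library is assumed to vary like the other groups.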
